A study of Mus musculus castaneus and Mus musculus domesticus and Mus musculus with 11 samples.

Results

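Cholinergic transmission genes were described across motor neuron cultures of 3 mouse stem cell lines. The set holds 10 named genes of acetylcholine synthesis, transport and breakdown and of neuronal nicotinic receptors, and it was chosen by symbol, matched through Ensembl gene IDs. Of the 10, 9 were matched in the count matrix of 27071 genes (Chat, Slc18a3, Slc5a7, Ache, Prima1, Chrna3, Chrna4, Chrna7 and Chrnb4), and all 9 passed the filter on low counts that left 14839 genes for testing. Chrnb2 was not analysed here.

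The groups were motor neurons differentiated from a CASTx129 cross (strain label 129CAS, called hybrid), from CAST/EiJ (called CAST, a wild-derived strain) and from 129S6/SvEv (called 129, a laboratory strain), with 3 libraries each. No genotype other than the strain, and no treatment or culture age, is given in the labels, and they leave unstated whether a line was differentiated in independent cultures or is 1 clone, so p-values reflect only the variation among these samples, which may be technical. A further 2 CAST samples, numbered 7 and 8, were not analysed here. Libraries are numbered by replicate within their line, and total counts ran from 7763077 to 18167577.

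Acetylcholine is the transmitter that spinal motor neurons release onto muscle. Choline enters the nerve terminal through a high-affinity transporter, is joined to acetyl-CoA by choline acetyltransferase and is packed into synaptic vesicles by the vesicular acetylcholine transporter. After release, acetylcholinesterase splits the transmitter, and neuronal nicotinic receptors, pentameric ion channels of alpha and beta subunits, answer it on nerve cells.

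The cultures held RNA of other cells. Summed over 8 fibroblast and mesenchyme markers, levels ran from 1581 to 39073 CPM (library-size-scaled counts, TMM) in hybrid, from 606 to 10052 CPM in CAST and from 7398 to 30729 CPM in 129. The 8 pan-neuronal markers summed to 2190 to 5232 CPM in hybrid, 2974 to 7290 CPM in CAST and 2073 to 5443 CPM in 129. Of the motor neuron transcription factors, Isl1 ran from 13.1 to 62.7 CPM over the 9 libraries and Mnx1 from 0.495 to 4.88 CPM, while Lhx3 had 0 counts in hybrid 1 and at most 2.13 CPM elsewhere. In bulk RNA, fewer cells of a type and less RNA per cell cannot be told apart. Hybrid 2 and CAST 1 stood apart from the rest: relative expression fell by 0.60 and 0.49 log2 units per doubling of exon length in these libraries, while the remaining slopes were −0.25 for hybrid 3 and 0.07 to 0.31 for 6 libraries.

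Chat and Slc18a3 share a locus. Chat (ENSMUSG00000021919), which encodes choline acetyltransferase, lies on chromosome 14 from 32408203 to 32465989 on the minus strand (GRCm38). Slc18a3 (ENSMUSG00000100241), which encodes the vesicular acetylcholine transporter, is a gene of 1 exon of 2413 bp at 32462438 to 32464850 on the same strand. It sits inside the first intron of the principal Chat transcript, between exon 1 (32465807 to 32465957) and exon 2 (32460725 to 32460913). The exons of these genes share 0 bp, so reads of spliced Chat RNA do not fall on Slc18a3. Reads of unspliced Chat RNA from this intron could be counted as Slc18a3, and their share was not tested.

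**Figure D1:**
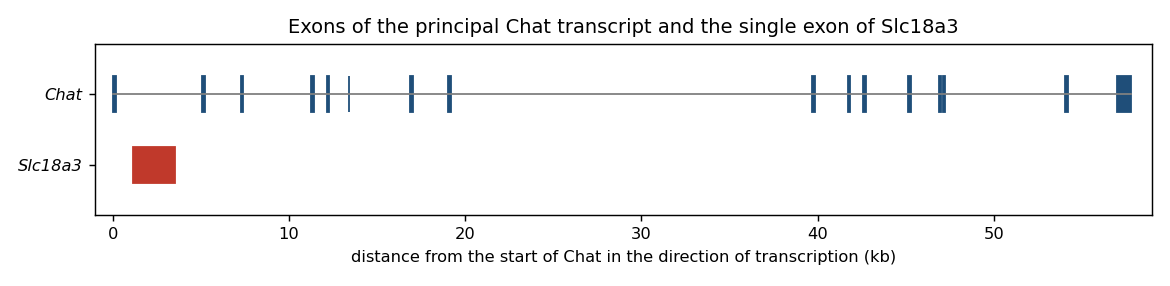
Map of the Chat locus, with distance from the start of Chat in kb along the direction of transcription on the x axis. Blue boxes are the 16 exons of the principal Chat transcript, and the red box is the single exon of Slc18a3, which lies between Chat exons 1 and 2.

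Levels between genes were compared per kb of exon, averaged over the 9 libraries. Ache stood highest at 30.6 ± 17.9 CPM per kb and Slc18a3 next at 24.1 ± 14.3 (SD over 9 libraries). Slc5a7 followed at 15.8, Chrna4 at 8.42, Chrna7 at 3.14, Chat at 2.43, Prima1 at 1.76, Chrna3 at 1.22 and Chrnb4 at 0.514 CPM per kb. Chrna4 was above Chrna7, and Chrna3 above Chrnb4, in 9 of 9 libraries, so their order held within each library. The SD of Chrna3 over the 9 libraries was 0.82 CPM per kb. The order of the 3 highest genes differed between lines: Ache led in hybrid (35.6 CPM per kb) and in CAST (40.0 CPM per kb), while in 129 the means were 28.6 for Slc5a7, 23.3 for Slc18a3 and 16.4 for Ache. Ache was above Slc18a3 in 3 of 3 hybrid, 3 of 3 CAST and 1 of 3 129 libraries. Slc18a3 was above Slc5a7 in 2 of 3 hybrid, 3 of 3 CAST and 0 of 3 129 libraries. Chrna7 was above Chat in 7 of 9. With the length of the principal transcript in place of all exons, a choice made after seeing the data, the 9 pooled means kept their order, with Ache at 64.8 CPM per kb. Ache was then above Slc18a3 in 9 of 9 libraries, Chrna4 above Chrna7 in 7 of 9, and Slc18a3 above Slc5a7 in only 4 of 9, with 0 of 3 in 129.

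Across all 9 libraries the levels of single members varied between 3.46-fold (Chrna4) and 16.2-fold (Slc5a7) from the lowest to the highest library. EdgeR called 0 of the 9 members in hybrid against 129 (7.02% of all tested genes passed), in CAST against 129 (0.917%) and in hybrid against CAST (6.00%), so no member is described as risen or fallen.

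**Figure D2:**
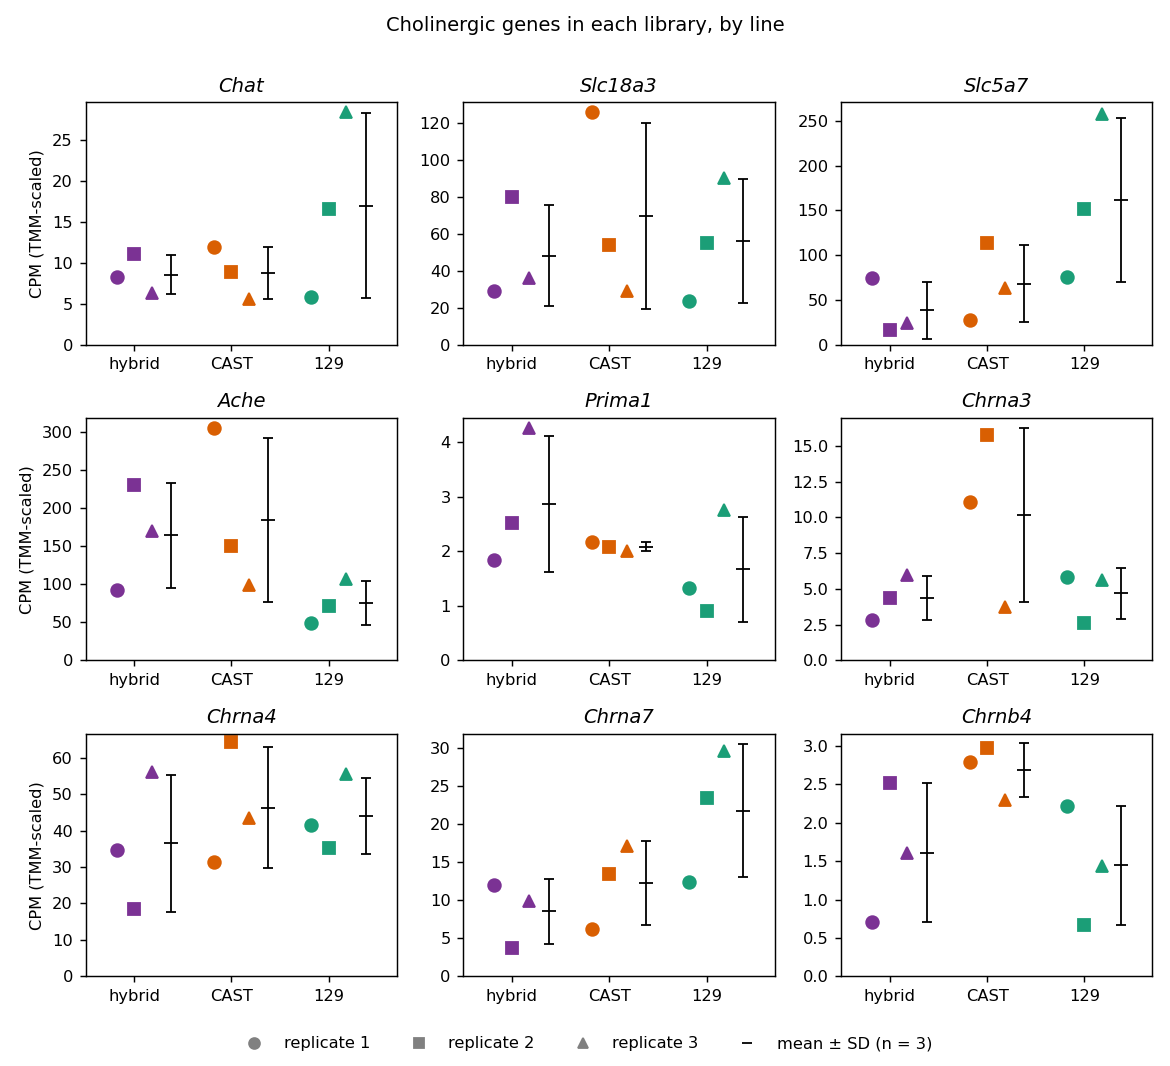
TMM-scaled CPM of each cholinergic gene (y axis, from 0) in every library of hybrid, CAST and 129 (x axis), with marker shape for the replicate and mean ± SD (n = 3) in black beside each line. The libraries of hybrid and 129 do not overlap for Slc5a7 (at most 75.0 against at least 75.3 CPM) and Chrna7 (at most 11.96 against at least 12.3 CPM), and those of CAST and 129 do not overlap for Chrnb4.

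For synthesis, Chat stood at 8.28, 11.04 and 6.36 CPM in hybrid 1 to 3, at 11.9, 8.93 and 5.52 CPM in CAST 1 to 3 and at 5.84, 16.6 and 28.4 CPM in 129 1 to 3. The lines overlapped, since 129 1 lay near the lowest CAST and hybrid libraries while 129 2 and 129 3 were the highest of all 9. Chat averaged 8.56 ± 2.35 CPM in hybrid, 8.77 ± 3.18 CPM in CAST and 17.0 ± 11.3 CPM in 129 (SD, n = 3 each). Its log2 fold change was −0.99 ± 0.56 (SE) in hybrid against 129, with a 95% interval of −2.26 to 0.28 (edgeR adjusted p = 0.315). In CAST against 129 it was −0.95 ± 0.56, with an interval of −2.21 to 0.31 (edgeR adjusted p = 0.437). Without 129 3 these estimates were −0.41 in hybrid and −0.36 in CAST against 129.

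For vesicular loading, Slc18a3 stood at 29.1, 79.8 and 35.8 CPM in hybrid 1 to 3, at 126, 54.1 and 29.2 CPM in CAST 1 to 3 and at 23.5, 54.9 and 90.3 CPM in 129 1 to 3. The ranges of the 3 lines overlapped almost entirely, and the highest values of hybrid and CAST came from hybrid 2 and CAST 1. The log2 fold change of Slc18a3 was −0.22 ± 0.66 (SE) in hybrid against 129, 0.31 ± 0.66 in CAST against 129 and −0.53 ± 0.66 in hybrid against CAST (edgeR adjusted p = 0.845, 0.814 and 0.821). Once a trend on exon length was removed from each library, the estimates were −0.85 ± 0.51 in hybrid against 129 and −0.22 ± 0.50 in CAST against 129 (edgeR adjusted p = 0.322 and 0.831), so the direction in CAST against 129 turned. It also turned without CAST 1, to −0.44 ± 0.61, and without 129 1, to −0.07 ± 0.69.

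For choline uptake, Slc5a7, the high-affinity choline transporter (ENSMUSG00000023945, chromosome 17, 54273590 to 54299034), stood at 75.0, 15.9 and 24.2 CPM in hybrid 1 to 3, at 27.6, 114 and 63.0 CPM in CAST 1 to 3 and at 75.3, 151 and 258 CPM in 129 1 to 3. Every hybrid library was below every 129 library, with hybrid 1 and 129 1 nearly equal, while CAST overlapped both. The log2 fold change in hybrid against 129 was −2.07 ± 0.74 (SE), with a 95% interval of −3.74 to −0.40, an unadjusted p of 0.0203 and an edgeR adjusted p of 0.151. DESeq2 called Slc5a7 lower in hybrid than in 129 (adjusted p = 0.0321), and so did edgeR without hybrid 1 (log2 fold change −3.02 ± 0.76, adjusted p = 0.0466). Over the alternatives fitted across all genes the adjusted p ran from 0.0321 to 0.383. Hybrid 2 had the lowest level of all 9 libraries, and CAST 1 the lowest of its line. With the exon length trend removed the estimate was −1.94 ± 0.62 (edgeR adjusted p = 0.0954). In CAST against 129 the estimate was −1.25 ± 0.73 (edgeR adjusted p = 0.434).

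Slc18a3 was set against Chat within each library, since these genes share a locus. Per kb of exon, Slc18a3 exceeded Chat 6.83-, 14.0- and 10.9-fold in hybrid 1 to 3, 20.6-, 11.8- and 10.2-fold in CAST 1 to 3 and 7.81-, 6.45- and 6.19-fold in 129 1 to 3. Every CAST library had a higher ratio than every 129 library, and hybrid spanned the range between, with hybrid 1 inside the range of 129. The mean log2 ratio was 3.76 ± 0.53 in CAST and 2.76 ± 0.18 in 129 (SD, n = 3 each), a difference of 0.999 (two-sided exact permutation p = 0.1, the smallest that 3 against 3 allows, and 0.771 adjusted over the 9 ratio tests). In hybrid against 129 the difference was 0.58 (exact permutation p = 0.2, 0.771 adjusted). CAST 1 had the highest ratio, and without it the difference of CAST from 129 was 0.70 log2 units. Slc18a3 has 2413 bp of exon and Chat 4703 bp, and the libraries differed in their trend on exon length. With that trend removed, an alternative added after seeing the data, the ratio was 7.92-, 8.13- and 9.87-fold in hybrid 1 to 3, 12.9-, 13.7- and 12.6-fold in CAST 1 to 3 and between 7.98- and 9.39-fold in the 129 libraries. CAST then stood above both other lines without overlap, and hybrid and 129 overlapped. The difference on the log2 scale was 0.028 in hybrid against 129 (exact permutation p = 0.7), 0.64 in CAST against 129 and −0.61 in hybrid against CAST (exact permutation p = 0.1 each, the smallest possible, and 0.45 adjusted over 9 tests). How often ratios of other gene pairs separate the lines was not tested. Of single genes tested without the trend removed, 28.6% did not overlap in CAST against 129 and 19.2% in hybrid against CAST.

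**Figure D3:**
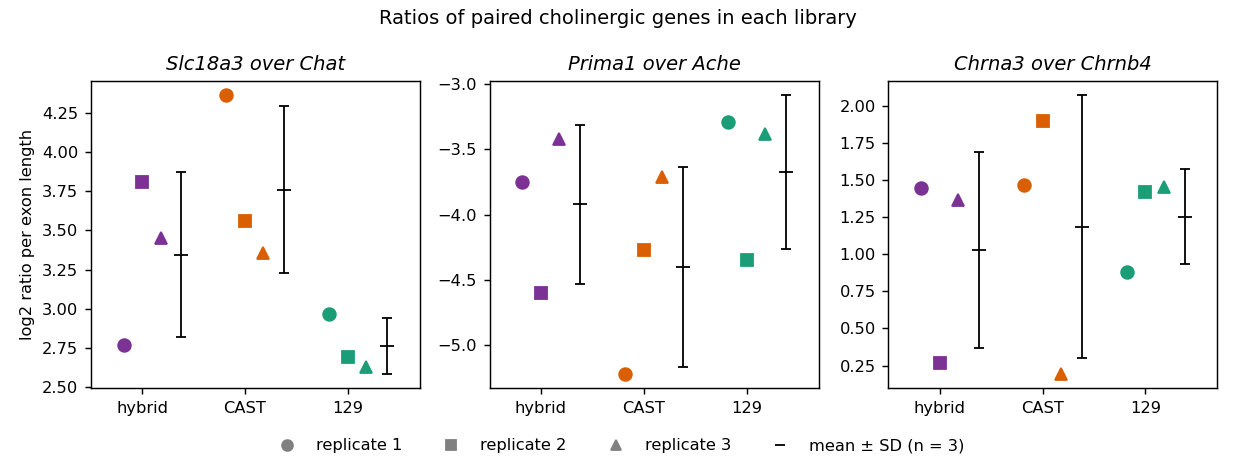
Log2 ratios per exon length (y axis) of Slc18a3 over Chat, Prima1 over Ache and Chrna3 over Chrnb4 in each library of hybrid, CAST and 129 (x axis), with mean ± SD (n = 3) in black. For Slc18a3 over Chat the CAST libraries (10.2- to 20.6-fold) lie above the 129 libraries (6.19- to 7.81-fold), and in the other panels all 3 lines overlap.

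For breakdown, Ache, acetylcholinesterase (ENSMUSG00000023328, chromosome 5, 137287519 to 137294466), stood at 93.0, 231 and 170 CPM in hybrid 1 to 3, at 305, 150 and 98.8 CPM in CAST 1 to 3 and at 49.1, 71.1 and 107 CPM in 129 1 to 3. In each of hybrid and CAST, 2 of 3 libraries were above all of 129, and the lowest lay between 129 2 and 129 3. The log2 fold change in CAST against 129 was 1.29 ± 0.54 (SE), with a 95% interval of 0.08 to 2.49, an unadjusted p of 0.039 and an edgeR adjusted p of 0.316. In hybrid against 129 it was 1.12 ± 0.53, with an interval of −0.08 to 2.32 (edgeR adjusted p = 0.250). Without CAST 1 the estimate in CAST against 129 was 0.71. These comparisons share the 129 libraries. Of the exonic bases of Ache, 2.12% overlap a non-coding gene on the opposite strand, and the strand setting of the counting is not given in the sources used here.

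Prima1, the membrane anchor that holds acetylcholinesterase at neuronal surfaces (ENSMUSG00000041669, chromosome 12, 103196908 to 103242150), had few reads, between 15 and 61 counts in a library. It stood at 1.84, 2.51 and 4.26 CPM in hybrid 1 to 3, at 2.17, 2.08 and 2.01 CPM in CAST 1 to 3 and at 1.33, 0.915 and 2.76 CPM in 129 1 to 3. CAST lay within the range of 129. The log2 fold change was 0.78 ± 0.55 (SE) in hybrid against 129 and 0.32 ± 0.55 in CAST against 129 (edgeR adjusted p = 0.396 and 0.765). With the exon length trend removed these estimates turned to −0.14 ± 0.65 and −0.18 ± 0.65. Relative to Ache per kb, Prima1 overlapped between all lines, at log2 differences of −0.73 in CAST against 129 and −0.25 in hybrid against 129. Exact permutation p-values ran from 0.3 to 0.6, with adjusted values of 0.771, where 3 against 3 cannot go below 0.1. With the exon length trend removed, the differences were −1.31 in CAST and −1.29 in hybrid against 129, still with overlap (exact permutation p = 0.2 and 0.3, 0.6 and 0.675 adjusted).

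Chrna3 and Chrnb4 encode alpha and beta subunits that assemble together in autonomic ganglia and lie side by side on chromosome 9 (55010111 to 55026562 and 55028154 to 55048779, both on the minus strand, 1591 bp apart). Chrna3 (ENSMUSG00000032303) stood at 2.83, 4.33 and 5.94 CPM in hybrid 1 to 3, at 11.05, 15.8 and 3.73 CPM in CAST 1 to 3 and at 5.84, 2.62 and 5.63 CPM in 129 1 to 3. CAST 1 and CAST 2 were the highest of the 9 libraries, while CAST 3 lay within the range of the other lines. Chrnb4 (ENSMUSG00000035200) stood at 0.708, 2.51 and 1.61 CPM in hybrid 1 to 3, at 2.79, 2.98 and 2.29 CPM in CAST 1 to 3 and at 2.22, 0.671 and 1.44 CPM in 129 1 to 3, from 10 to 53 counts a library. All 3 CAST libraries were above all 3 of 129. The log2 fold change in CAST against 129 was 1.12 ± 0.58 (SE) for Chrna3 and 0.89 ± 0.60 for Chrnb4 (edgeR adjusted p = 0.391 and 0.483). In hybrid against CAST it was −1.22 ± 0.58 for Chrna3 and −0.76 ± 0.61 for Chrnb4 (edgeR adjusted p = 0.363 and 0.671).

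Markers of autonomic and visceral motor neurons were read beside these receptors. The 7 markers of that list summed to 86.4, 88.6 and 30.6 CPM in hybrid 1 to 3, to 295, 131 and 61.6 CPM in CAST 1 to 3 and to 74.6, 86.2 and 59.9 CPM in 129 1 to 3. CAST 1 and CAST 2 were highest, as for Chrna3, and Dbh, which makes noradrenaline, was at most 2.68 CPM in any library. The part of such cells in the levels of Chrna3 and Chrnb4 was not tested.

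Chrna4 (ENSMUSG00000027577, chromosome 2, 181018380 to 181043546), an alpha subunit of the main heteromeric receptor of brain, stood at 34.7, 18.6 and 56.2 CPM in hybrid 1 to 3, at 31.3, 64.2 and 43.4 CPM in CAST 1 to 3 and at 41.5, 35.1 and 55.6 CPM in 129 1 to 3. The 3 lines overlapped, and Chrna4 had the narrowest spread of the 9 members. Its log2 fold change was −0.27 ± 0.45 (SE) in hybrid against 129 (95% interval −1.29 to 0.75) and 0.07 ± 0.45 in CAST against 129 (95% interval −0.95 to 1.09), with edgeR adjusted p = 0.718 and 0.945.

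Chrna7 (ENSMUSG00000030525, chromosome 7, 63098692 to 63212569), whose product forms homomeric receptors, stood at 11.96, 3.77 and 9.85 CPM in hybrid 1 to 3, at 6.19, 13.4 and 17.1 CPM in CAST 1 to 3 and at 12.3, 23.4 and 29.5 CPM in 129 1 to 3. Every hybrid library was below every 129 library, by a small margin between hybrid 1 and 129 1, and the lowest values of hybrid and CAST came from hybrid 2 and CAST 1. The log2 fold change was −1.34 ± 0.55 (SE) in hybrid against 129 (unadjusted p = 0.037, edgeR adjusted p = 0.200) and −0.83 ± 0.55 in CAST against 129 (edgeR adjusted p = 0.473). With the exon length trend removed, hybrid against 129 gave −1.33 ± 0.51 (edgeR adjusted p = 0.154).

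**Figure D4:**
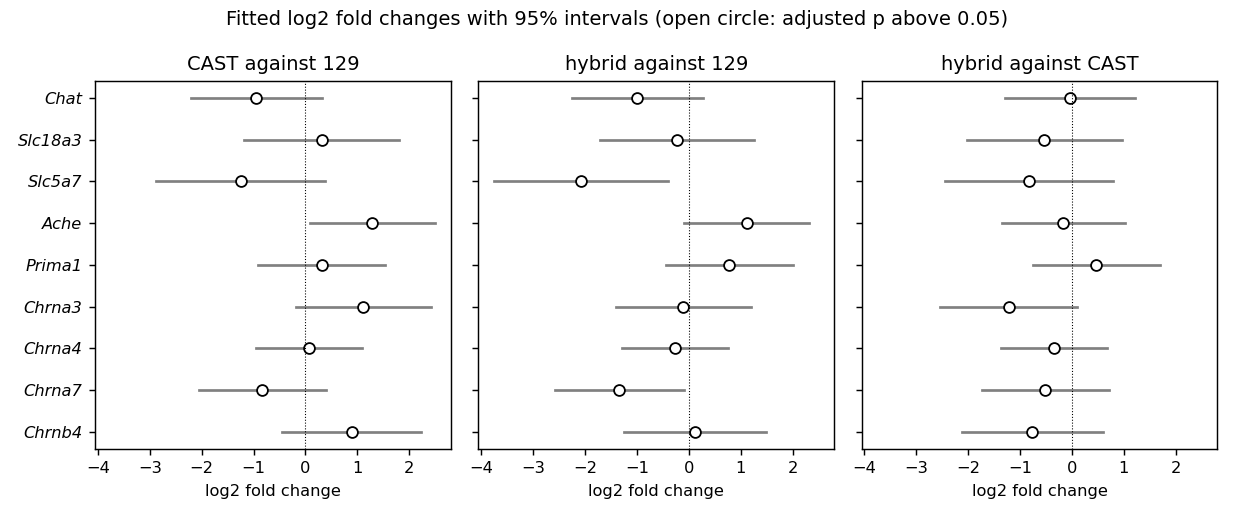
Log2 fold changes (x axis) of the 9 cholinergic genes (rows) in CAST against 129, hybrid against 129 and hybrid against CAST, with 95% intervals from the edgeR fit as grey bars. Open circles mark an adjusted p above 0.05, which holds for all 27 estimates, and the intervals of Ache in CAST against 129 and of Slc5a7 and Chrna7 in hybrid against 129 lie to one side of 0.

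Beside the 0 of 9 members called by edgeR in each comparison of lines, less strict counts were read. At an unadjusted p under 0.05, 2 of 9 members, Slc5a7 and Chrna7, were below 129 in hybrid (7.68% of all tested genes were lower by that rule, 22.2% differed in either direction), 1 of 9, Ache, was above 129 in CAST (8.77% higher, 14.6% either way), and 0 of 9 passed in hybrid against CAST (15.8%). The libraries of hybrid and 129 did not overlap for 2 of 9 members, where 37.5% of all tested genes did not. Those of CAST and 129 did not overlap for 1 of 9 (28.6%), and those of hybrid and CAST for 0 of 9 (19.2%). The median log2 fold change of the members was −0.22 in hybrid against 129 (0.02 over all tested genes), 0.31 in CAST against 129 (0.06) and −0.51 in hybrid against CAST (−0.08). DESeq2 called 1 of 9, Slc5a7, in hybrid against 129, where it called 14.2% of all tested genes. It called 0 of 9 in CAST against 129 (6.33%), hybrid against CAST (10.8%), hybrid against the midparent (12.1%) and the joint test of the 3 lines (16.9%). Limma-voom called 0 of 9 in the same comparisons (7.48% in hybrid against 129, 1.58% in CAST against 129, 6.56% in hybrid against CAST, 7.75% against the midparent and 8.39% in the joint test). The standard errors of the 27 estimates ran from 0.45 to 0.74 log2 units.

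Hybrid was also set against the midparent, the mean of CAST and 129 on the log2 scale. EdgeR called 0 of 9 members (background 7.34%), with 0 at an unadjusted p under 0.05 (18.4%). The log2 fold changes of hybrid from the midparent were positive for Ache and Prima1 (0.48 ± 0.45 and 0.62 ± 0.46, SE) and negative for the other 7, down to −1.45 ± 0.66 for Slc5a7 (edgeR adjusted p = 0.286). In the joint test of any difference among the 3 lines, edgeR called 0 of 9 (background 8.03%), with Slc5a7 at an unadjusted p of 0.0481 (21.1% of all tested genes under 0.05).

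Libraries of the same line differed widely. Within 129, the median member varied by 1.59 log2 units between its lowest and highest library, against 0.57 over all tested genes. Within hybrid the medians were 1.46 for members and 1.29 for all tested genes, and within CAST 1.46 and 1.30. In 129, Chat, Slc18a3, Slc5a7, Ache and Chrna7 were all highest in 129 3 and lowest in 129 1, an order that 32.7% of all tested genes had. Summed pan-neuronal markers stood at 2073, 3165 and 5443 CPM in 129 1 to 3, summed spinal motor neuron markers at 872, 1292 and 1899 CPM, and summed fibroblast markers at 30729, 29463 and 7398 CPM. The sums for neurons and motor neurons thus had the same order of the 129 libraries as these 5 members, and the fibroblast sum the reverse order. Single markers did not all follow their sum. Lhx3, Slit2 and Slit3 of the motor neuron list and Fn1 and Pdgfra of the fibroblast list had other orders, while the rest of the 3 lists followed. The part of these cells in the spread was not tested. In CAST, Chat, Slc18a3, Ache and Prima1 were highest in CAST 1 and lowest in CAST 3 (29.97% of all tested genes). Lowest in CAST 1 were Slc5a7 and Chrna4, with CAST 2 highest (16.4% of all tested genes), and Chrna7, with CAST 3 highest (29.1%). In hybrid, Slc5a7 and Chrna7 were highest in hybrid 1 and lowest in hybrid 2 (28.3%). Chrna4 was highest in hybrid 3 and lowest in hybrid 2 (12.2%).

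**Figure D5:**
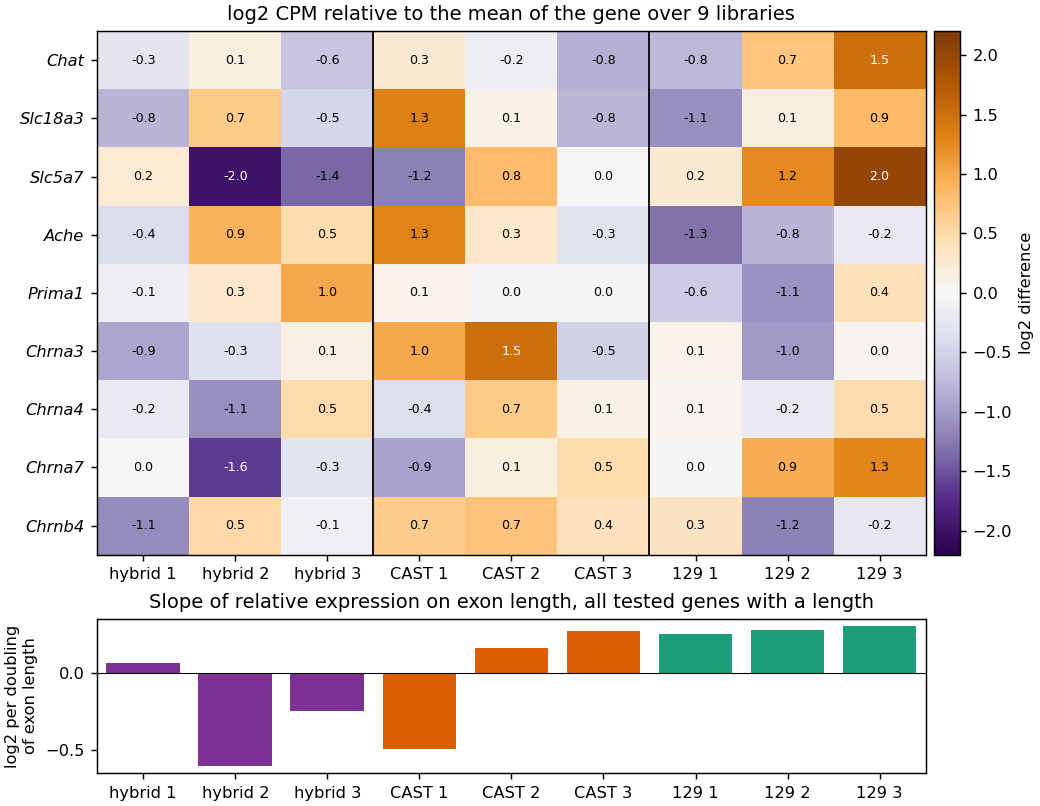
Upper panel, log2 CPM of each cholinergic gene (rows) in each library (columns, hybrid, CAST, 129) relative to the mean of that gene over 9 libraries, with the value printed in each cell. Lower panel, slope of relative expression on log2 exon length over all tested genes with a length, which is −0.60 in hybrid 2 and −0.49 in CAST 1. In both, Slc18a3 and Ache were above their mean and Slc5a7 and Chrna7 below it. Slc18a3 was higher in 129 3 (0.85) than in hybrid 2 (0.67), and Slc5a7 lower in hybrid 3 (−1.39) than in CAST 1 (−1.20). Ache has 4623 bp of exon and Chrna7 4505 bp, and the part of exon length in these profiles was not tested.

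Members were compared by the root mean square difference of their centred log2 CPM profiles over the 9 libraries. The most alike were Chrna3 and Chrnb4, neighbours on chromosome 9, at 0.53 log2 units, then Chat and Slc18a3, of a shared locus, at 0.55, and Slc5a7 and Chrna7 at 0.57. The least alike were Slc5a7 and Ache, at 1.84. Among all other named genes tested, the 5 with the profile most like that of Chat were Syt12 (0.29), Prkch (0.33), Gata4 (0.34), Macrod2 (0.35) and Prss12 (0.37), each highest in 129 3. Those most like Slc18a3 were Gpr151 (0.19), Pparg (0.22), Kcnip4 (0.30), Nrn1 (0.31) and Coa7 (0.34), each highest in CAST 1.

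Because neuronal markers varied between libraries, members were also expressed per 1000 CPM of the 8 summed pan-neuronal markers, a scaling chosen after seeing the data. On this scale Ache stood at 42.5, 55.1 and 32.4 in hybrid 1 to 3, at 41.9, 37.1 and 33.2 in CAST 1 to 3 and at 23.7, 22.5 and 19.7 in 129 1 to 3, so that every hybrid and every CAST library was above every 129 library. Slc5a7 stood at 34.2, 3.80 and 4.62 in hybrid 1 to 3, at 3.78, 28.1 and 21.2 in CAST 1 to 3 and at 36.3, 47.8 and 47.4 in 129 1 to 3, every hybrid and CAST library below every 129 library. Chat stood at 3.78, 2.63 and 1.22 in hybrid 1 to 3, at 1.63, 2.21 and 1.86 in CAST 1 to 3 and at 2.82, 5.24 and 5.23 in 129 1 to 3, below 129 in every CAST library and overlapping it in hybrid.

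The log2 difference on this scale was 0.95 for Ache and −2.37 for Slc5a7 in hybrid against 129. In CAST against 129 it was 0.77 for Ache, −1.73 for Slc5a7 and −1.18 for Chat. Each of these 5 had a two-sided exact permutation p of 0.1, the smallest possible, and 0.45 adjusted over 27 tests. The lines did not overlap for 2 of 9 members in hybrid against 129 (17.4% of all tested genes on the same scale), 3 of 9 in CAST against 129 (13.0%) and 0 of 9 in hybrid against CAST (15.1%). Stmn2, a microtubule regulator of growing neurons, made up 34.2% to 53.0% of the pan-neuronal sum in hybrid, 27.4% to 44.2% in CAST and 26.8% to 27.2% in 129, and Tubb3, a neuronal tubulin, 18.4% to 36.2% in hybrid, 18.5% to 44.3% in CAST and 15.9% to 18.2% in 129. Together they made up 89.2% of the sum in hybrid 2 and 88.4% in CAST 1, against 42.7% to 45.3% in 129, and their part in these differences was not tested.

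A list of 39 further cholinergic genes was read from the same fit, and 27 of these were tested. EdgeR called 0 in hybrid against 129 and 0 in CAST against 129 (4 and 3 at an unadjusted p under 0.05, where 22.2% and 14.6% of all tested genes passed; DESeq2 called 1 and 1, where it called 14.2% and 6.33% of all tested genes, and limma-voom 0 and 0). In hybrid against CAST it called 1 of 27, higher in hybrid, where 6.00% of all tested genes passed. Of the 11 further nicotinic subunits, 3 were tested (Chrna1, Chrna5 and Chrnb1), and the other 8 each had 39 counts or fewer summed over the 9 libraries. None of 4 tested muscarinic receptors, 2 breakdown genes, 6 genes of receptor assembly and modulation and 12 genes of choline and acetyl-CoA supply was called by edgeR in a comparison of 2 lines (2, 0, 4 and 2 gene and comparison pairs at an unadjusted p under 0.05).

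The called gene was Chrna1, the alpha subunit of the muscle nicotinic receptor. It had 32, 24 and 19 counts in hybrid 1 to 3 and 5, 4 and 3 counts in CAST 1 to 3, and 47, 16 and 20 counts in 129 1 to 3. All CAST libraries were below all 129 libraries, where 28.6% of all tested genes did not overlap. The log2 fold change of Chrna1 in CAST against 129 was −2.34 ± 0.68 (SE, edgeR adjusted p = 0.160), and DESeq2 called it. Hybrid and 129 overlapped, at 0.53 ± 0.60 in hybrid against 129 (edgeR adjusted p = 0.586). All hybrid libraries were above all CAST libraries, at 2.31 ± 1.01 CPM in hybrid and 0.319 ± 0.171 CPM in CAST (SD, n = 3 each), with a fold change on the log2 scale of 2.87 ± 0.69 (SE) and an adjusted p of 0.0381 in edgeR. The call ended without hybrid 1 (adjusted p = 0.0774), hybrid 2 (0.0883), CAST 2 (0.155), CAST 3 (0.160), 129 2 (0.0646) and 129 3 (0.0648), with the replicate block (0.0723), with only hybrid and CAST in the fit (0.0747), without both CAST 1 and hybrid 2 (0.0676) and with no filter on low counts (0.0516). Over all alternatives its adjusted p ran from 0.00151 to 0.160. The 8 skeletal muscle markers summed to 91.4, 261 and 16.1 CPM in hybrid 1 to 3 and to 51.1, 18.5 and 20.1 CPM in CAST 1 to 3, and from 56.6 to 264 CPM in 129, with Myf5 at 0 counts in all libraries and Myog at most 0.699 CPM in hybrid and CAST. Des, the intermediate filament desmin, held most of the hybrid sum, at 76.4, 222 and 8.32 CPM in hybrid 1 to 3 and 15.0, 9.10 and 5.09 CPM in CAST 1 to 3. Myh3, embryonic myosin heavy chain, named after its values were seen, went the other way, at 1.698, 1.68 and 1.19 CPM in hybrid 1 to 3 and 6.40, 4.38 and 6.88 CPM in CAST 1 to 3 (−1.95 ± 0.51 on the log2 scale, edgeR adjusted p = 0.0599). The part of muscle cells in the level of Chrna1 was not tested.

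The most abundant genes of the further list were Acly, Lynx1 and Ly6h. Acly, which makes cytosolic acetyl-CoA, averaged 383 ± 55.2 CPM in hybrid, 668 ± 160 CPM in CAST and 564 ± 110 CPM in 129 (SD, n = 3 each), with a log2 fold change of −0.80 ± 0.40 (SE) in hybrid against CAST (edgeR adjusted p = 0.388). Lynx1, a membrane-anchored modulator of nicotinic receptors, averaged 137 ± 37.3 CPM in hybrid, 451 ± 176 CPM in CAST and 221 ± 97.6 CPM in 129, and every hybrid library was below every CAST library. Its log2 fold change in hybrid against CAST was −1.71 ± 0.48 (SE, edgeR adjusted p = 0.0737), and DESeq2 called it. Ly6h, of the same protein family, stood at 54.0, 407 and 253 CPM in hybrid 1 to 3, at 409, 109 and 72.8 CPM in CAST 1 to 3 and at 34.2, 46.2 and 69.2 CPM in 129 1 to 3, highest in CAST 1 and hybrid 2, with a log2 fold change of 2.26 ± 0.83 in hybrid against 129 (edgeR adjusted p = 0.160), where DESeq2 called it.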

How the data were processed

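Per the labels' protocols, RNA was column-purified with DNase treatment, messenger RNA was captured on poly-T beads, and the first cDNA strand was primed by random hexamers. Per the submitters' processing notes, STAR and mm10 were used. Neither a STAR version nor the counting tool, annotation or strand setting was found: they were not given in the sources used here. Values as deposited are raw read counts per Ensembl gene, 1 column a library, not pooled. The number after the letter B in a column name was read as the replicate number. Effects of strain sequence differences on alignment to 1 genome were not tested.

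Names, positions and exon lengths came from the GENCODE annotation of GRCm38 (mm10), in which 27031 IDs had a symbol and 40 had none. Low counts were filtered with filterByExpr by line (minimum count 10, total 15, proportion 0.7). One edgeR 4.0.16 fit (R 4.3.3, TMM scaling, robust quasi-likelihood) held all 9 libraries, without covariates, and Benjamini-Hochberg adjustment ran over the 14839 tested genes at 0.05. CPM refer to TMM-scaled libraries. Log ratios used a pseudocount of 0.5 counts, and profiles a prior count of 2. The planned ratio of Chrna4 to Chrnb2 was not run. The fit was tested on simulated data.

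Alternatives were DESeq2 1.42.0, limma-voom (limma 3.58.1), RLE and upper-quartile scaling, no filter, a minimum count of 30, only the groups compared, a replicate block, an exon length offset, leaving out each library, and leaving out both CAST 1 and hybrid 2. Principal transcript lengths, scaling to pan-neuronal markers and the exon length offset for ratios were added after seeing the data. Named genes were the members, of the further list those past the threshold and the 3 most abundant, and the 5 genes with the profile most like Chat and like Slc18a3. The members and lists were chosen with earlier results of these data known. One further marker gene is not reported here.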

Additional observations from a re-analysis of the deposited data

How the results depend on the processing

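The count of members called by edgeR was 0 in each comparison and stayed 0 under the alternatives run, except in hybrid against 129, where it was 1 with DESeq2 and 0 to 1 when each library was left out in turn. Of the further list, DESeq2 called 1 in CAST against 129, 1 in hybrid against 129, 2 in hybrid against CAST, 2 in hybrid against the midparent and 2 in the joint test, where limma-voom called 1 (DESeq2 called 6.33%, 14.2%, 10.8%, 12.1% and 16.9% of all tested genes in the same order). In hybrid against CAST the count was 0 with no filter, with the replicate block, with only the groups compared and without both CAST 1 and hybrid 2. Leaving out each library gave 0 to 1 there and 0 to 1 in hybrid against 129, the gene being Chkb without CAST 1.

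Library numbers were not treated as pairs: the deviations of libraries that share a number correlated above 0.1 in 2 of 9 cases, with r from −0.72 to 0.49. With the replicate block edgeR called 0 members in each comparison, and 6 genes in place of 136 among all tested genes in CAST against 129.

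Directions that turned were all of uncalled values, and the cause was not tested. With the exon length offset, log2 fold changes became −0.22 for Slc18a3 and −0.18 for Prima1 in CAST against 129, −0.14 for Prima1, 0.0687 for Chrna3 and −0.0134 for Chrnb4 in hybrid against 129, and −0.0471 for Prima1 against the midparent, and the log2 ratio of Chrna3 to Chrnb4 became 0.14 in CAST against 129 and 0.0535 in hybrid against 129. Upper-quartile scaling gave 0.0619 for Slc18a3 and 0.13 for Chrna3 in hybrid against 129, and 0.15 for Chat and 0.0483 for Ache in hybrid against CAST. Chat in hybrid against CAST was 0.000682 with DESeq2, 0.000627 with RLE and 0.00825 with a minimum count of 30. Without both CAST 1 and hybrid 2, values were −0.46 for Slc18a3 in CAST against 129, 0.0617 for Chrna4 and −0.31 for Chrnb4 in hybrid against 129, and 0.0661 for Chat and 0.13 for Ache in hybrid against CAST. The log2 ratios became 0.0883 for Prima1 over Ache and 0.16 for Chrna3 over Chrnb4 in hybrid against 129, and 0.36 for Chrna3 over Chrnb4 in hybrid against CAST. Per pan-neuronal sum, values were −0.17 for Slc18a3 and −0.40 for Chrna4 in CAST against 129, −0.00344 for Chrnb4 in hybrid against 129, and 0.29 for Chat and 0.18 for Ache in hybrid against CAST.

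Of values that kept their sign in CAST against 129, leaving out each library gave 0.71 to 1.61 for Ache, −1.37 to −0.36 for Chat, −1.84 to −0.74 for Slc5a7, 0.64 to 1.51 for Chrna3, 0.55 to 1.33 for Chrnb4 and −1.15 to −0.52 for Chrna7. It gave −0.44 to 0.82 for Slc18a3 and −0.24 to 0.27 for Chrna4 in CAST against 129. In hybrid against 129 it gave −0.78 to 0.28 for Slc18a3, −0.42 to 0.11 for Chrna3, −0.73 to 0.0541 for Chrna4 and −0.31 to 0.56 for Chrnb4. In hybrid against CAST it gave −0.29 to 0.23 for Chat, −1.05 to 0.18 for Slc18a3, −0.48 to 0.39 for Ache and −0.80 to 0.00977 for Chrna4, and against the midparent −0.77 to 0.0319 for Chrna4 and −0.74 to 0.0231 for Chrnb4. The ratio of Chrna3 to Chrnb4 ran from −0.42 to 0.43 in CAST against 129, −0.43 to 0.16 in hybrid against 129 and −0.65 to 0.22 in hybrid against CAST, and that of Prima1 to Ache from −0.59 to 0.0883 in hybrid against 129.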

Other observations

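Further cholinergic genes outside the rule for named genes, chosen after their values were seen, differed at an unadjusted p under 0.05 without passing the adjusted threshold of edgeR. Of all tested genes, 22.2% were under 0.05 in hybrid against 129 and 15.8% in hybrid against CAST. Chrm3, a muscarinic receptor, stood at 28.7, 21.7 and 47.4 CPM in hybrid 1 to 3 and at 50.1, 62.1 and 87.8 CPM in 129 1 to 3, with a log2 fold change of −1.03 ± 0.44 (SE, adjusted p = 0.210). Chrm2, another muscarinic receptor, stood at 46.8, 9.78 and 19.6 CPM in hybrid 1 to 3 and at 43.0, 62.6 and 121 CPM in 129 1 to 3 (−1.57 ± 0.70, adjusted p = 0.225). Chkb, a choline kinase, stood at 29.5, 68.0 and 56.7 CPM in hybrid 1 to 3 and at 20.8, 19.6 and 21.1 CPM in 129 1 to 3, with every hybrid library above every 129 library (1.32 ± 0.46, adjusted p = 0.138), and edgeR called it without CAST 1. In CAST 1 to 3, Chkb stood at 67.8, 36.2 and 23.1 CPM, also above every 129 library (1.04 ± 0.46 in CAST against 129, edgeR adjusted p = 0.337). Hybrid against CAST gave 0.28 ± 0.45 for Chkb (edgeR adjusted p = 0.866). Chrna5, which lies beside Chrna3 on chromosome 9, stood at 1.06, 2.24 and 2.31 CPM in hybrid 1 to 3 and at 4.44, 4.04 and 5.16 CPM in CAST 1 to 3, again without overlap (−1.29 ± 0.49, adjusted p = 0.218). In 129 1 to 3, Chrna5 stood at 1.39, 2.38 and 3.10 CPM, below every CAST library. Its log2 fold change was 0.99 ± 0.48 in CAST against 129 (edgeR adjusted p = 0.373) and −0.30 ± 0.49 in hybrid against 129. Libraries did not overlap for 37.5% of all tested genes in hybrid against 129, 28.6% in CAST against 129 and 19.2% in hybrid against CAST. Chrna3, Chrnb4 and Chrna5, the 3 subunit genes of this cluster, each had a higher mean in CAST than in hybrid and in 129. For Chrna3, CAST 3 lay within the range of both other lines at 3.73 CPM. The share of all tested genes with their highest mean in CAST was not counted. None of these differences passed the adjusted threshold of edgeR.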
